A study of Mus musculus with 6 samples.

Results

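Histone and DNA modifying enzymes were measured in group 2 innate lymphoid cells (ILC2s) that were stimulated through GITR or left without that signal. ILC2s are tissue-resident lymphocytes that make type 2 cytokines, and GITR (Tnfrsf18) is a costimulatory receptor of the TNF receptor superfamily. The genes were chosen by symbol, as the protein-coding genes named Kdm, Kmt, Hdac, Sirt or Kat with a number, together with Tet1, Tet2, Tet3, Dnmt1, Dnmt3a, Dnmt3b, Ezh1, Ezh2, Ep300 and Crebbp. This gave 62 of the 53278 genes listed, of which 21934 were protein-coding. They comprised 3 DNA methyltransferases, 3 TET enzymes, 10 lysine acetyltransferases, 11 zinc-dependent histone deacetylases, 7 sirtuins, 10 lysine methyltransferases and 18 lysine demethylases. No measured value was used in the choice.

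All cells came from visceral adipose tissue of C57BL/6 mice that were 8 weeks old and had received 3 intraperitoneal injections of 1 µg recombinant mouse IL-33. Cells were sorted as CD45+ ST2+ CD117+ and negative for lineage markers, and were cultured in IL-2 and IL-7, each at 10 ng/mL. One group received DTA-1, an agonistic antibody to GITR, at 5 µg/mL and the other its isotype control, with 3 libraries in each group and 48 h of culture by the sample labels. IL-33, IL-2 and IL-7 were thus common to both groups, and no unstimulated or freshly isolated cells were measured. The sources do not say whether the 3 libraries of a group came from separate mice or cultures, so each p measures only the spread between these libraries.

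Total counts were 30569351 to 35131329 per library. Summed over 15 ILC2 marker genes, levels were 14675 to 15464 CPM (counts scaled to library size with TMM factors) with isotype control and 15684 to 20251 CPM with DTA-1. Most of the difference was Il5, an effector cytokine of these cells (5325 and 8074 CPM as group means), while the identity markers Gata3 (1698 and 1603 CPM) and Il1rl1 (1178 and 1110 CPM), which encodes ST2, had lower means with DTA-1. Neither of the latter passed the edgeR test. The next highest marker sum was that of T cells, at 40.1 to 53.3 CPM and 45.9 to 50.3 CPM. Markers of mast cells and basophils were at 6.41 to 10.8 CPM with isotype control and 8.77 to 22.2 CPM with DTA-1, and markers of endothelial cells at 18.4 to 24.4 CPM and 10.6 to 18.3 CPM. B cell markers were at 16.6 to 18.2 CPM over all libraries, macrophage markers at 6.44 to 12.2 CPM, and those of neutrophils, adipocytes and mesothelial cells at 1.41 CPM or less. Fibroblast markers were at 2.20 to 8.39 CPM with isotype control and 0 to 3.98 CPM with DTA-1. Of these, Pdgfra was at 0 in all DTA-1 libraries, and Col1a1 had means of 1.74 and 0.127 CPM. With all libraries their adjusted p was 0.0023 and 0.00344 by DESeq2 but 0.452 and 0.491 by edgeR. Pecam1 gave nearly all of the endothelial sum, with Cdh5 and Cldn5 at 0 in every library. The part of such cells in the members' values was not tested. The library labelled DTA-1 replicate 1 stood apart from the other DTA-1 libraries. On the first principal component (26.2% of the variance) it was at -9.56, whereas the isotype control libraries lay between -25.5 and -15.6 and the other DTA-1 libraries at 28.6 and 40.2. Results are therefore given with and without this library, and in neither case can fewer cells of one type be told apart from less RNA per cell. Without this library the edgeR adjusted p was 0.0481 for Pdgfra, 0.0325 for Col1a1 and 0.0132 for Pecam1, all lower with DTA-1. For the mast cell gene Cpa3, which was higher with DTA-1, it was 0.0391. Other markers of cells other than ILC2s did not reach an adjusted p under 0.05 there.

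These enzymes write and erase the chemical marks of chromatin. Acetyltransferases add acetyl groups to lysines of histones and other proteins, and deacetylases remove them, the zinc-dependent enzymes by hydrolysis and the sirtuins at the expense of NAD+. Methyltransferases and demethylases act on histone lysines in the same opposed way, DNA methyltransferases methylate cytosine, chiefly in CpG dinucleotides, and TET enzymes oxidize the methylated base. In lymphocytes these enzymes take part in lineage choice and in the stability of cytokine gene expression.

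The stretches of DNA just before a RefSeq start of 3 of the genes are printed here. They were chosen because the genes encode enzymes that act on CpG sites or on nearby chromatin, and because the stretches differ widely in CpG content. Dnmt1 was the most abundant DNA methyltransferase, Tet2 the most abundant TET enzyme, and Ezh1 had the smallest p of all members in the comparison of DTA-1 with isotype control. Each line gives the 250 bases before the RefSeq start nearest the gene's start in the table (GRCm38.p6, 5′ to 3′ on the minus strand). Capitals mark CpG dinucleotides. The genes lie at chr9:20907209-20959889 (Dnmt1), chr11:101191115-101226464 (Ezh1) and chr3:133463679-133545140 (Tet2) in the table (GRCm38). The windows are chr9:20959889-20960138 for Dnmt1, chr11:101226464-101226713 for Ezh1 and chr3:133544391-133544640 for Tet2, and none overlapped an annotated exon. The Tet2 window lies inside the gene's span, since the RefSeq start used was 750 bases from the gene's start in the table.
Dnmt1: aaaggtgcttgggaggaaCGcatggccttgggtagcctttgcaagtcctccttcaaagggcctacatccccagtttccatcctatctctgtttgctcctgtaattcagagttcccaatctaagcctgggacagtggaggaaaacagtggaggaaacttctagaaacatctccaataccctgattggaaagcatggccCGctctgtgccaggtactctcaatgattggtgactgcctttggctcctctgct
Ezh1: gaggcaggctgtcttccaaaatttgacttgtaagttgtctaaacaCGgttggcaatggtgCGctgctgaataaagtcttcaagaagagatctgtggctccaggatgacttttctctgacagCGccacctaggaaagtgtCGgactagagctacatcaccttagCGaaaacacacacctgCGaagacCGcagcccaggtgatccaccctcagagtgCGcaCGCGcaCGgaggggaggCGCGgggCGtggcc
Tet2: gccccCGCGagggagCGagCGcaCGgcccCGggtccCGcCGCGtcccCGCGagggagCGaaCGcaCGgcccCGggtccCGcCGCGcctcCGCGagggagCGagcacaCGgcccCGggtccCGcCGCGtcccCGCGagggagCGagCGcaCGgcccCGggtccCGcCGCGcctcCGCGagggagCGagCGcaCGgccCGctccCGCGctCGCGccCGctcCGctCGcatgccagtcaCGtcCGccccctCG

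The Dnmt1 window held 2 CpG dinucleotides, the Ezh1 window 14 and the Tet2 window 51. A window was available for 51 of the 62 members. Their median was 15 CpG dinucleotides, and the range was 0 (Hdac9 and Kdm4c) to 56 (Kdm7a). The median over 17492 protein-coding genes, expressed or not, was 10. The windows were chosen by unlike rules, the first one listed for those genes and the one nearest the gene's start in the table for members. Even so, the member window of Sirt1 lay 42670 bases from that start. The ratio of observed to expected CpG was above 0.6 for 39 of the 51 members (76.5%), against 45.2% of the protein-coding genes. A pattern of the NF-κB site (GGGANTTTC, either strand) was present in 0 of the 51 windows and in 0.932% of protein-coding genes. A much looser pattern, GGG and CC spaced by any 5 bases on either strand, was present in 32 windows (62.7%), Tet2 and Ezh1 included, and in 51.1% of protein-coding genes. The ETS core (CCGGAAG, either strand) was present in 5 windows (9.80%) and in 9.13% of protein-coding genes. These are matches of letters in the reference sequence, and no binding or methylation was measured. Which start of a gene these cells used was not measured either. A window, that of Dnmt1 included, therefore need not lie before the start in use.

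The level of each enzyme in these ILC2s was examined first. Levels are given as CPM per kilobase of exon, which allows genes of different length to be compared. Of the 62 members, 9 had a mean over 20, 22 lay between 5 and 20, 24 between 1 and 5, and 7 under 1. The median member was at 4.99 CPM per kb, and 24 of the 62 members were above 6.43 CPM per kb, the median of 11758 protein-coding genes tested. The members thus spanned from Hdac1, above 93.1% of those genes, to Hdac9, which was below every one of them. Those genes had passed the filter on low counts and Hdac9 had not, so its place below them follows largely from that filter. When members were ordered by level, neighbours were mostly not separable. In 6 of the 61 neighbouring pairs every library of the higher gene was above every library of the lower one, among them Hdac1 over Dnmt1 and Dnmt1 over Sirt7. The order of Dnmt1 and Sirt7 turned when the longest coding transcript was taken as length (48.5 and 86.6 CPM per kb).

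**Figure D1:**
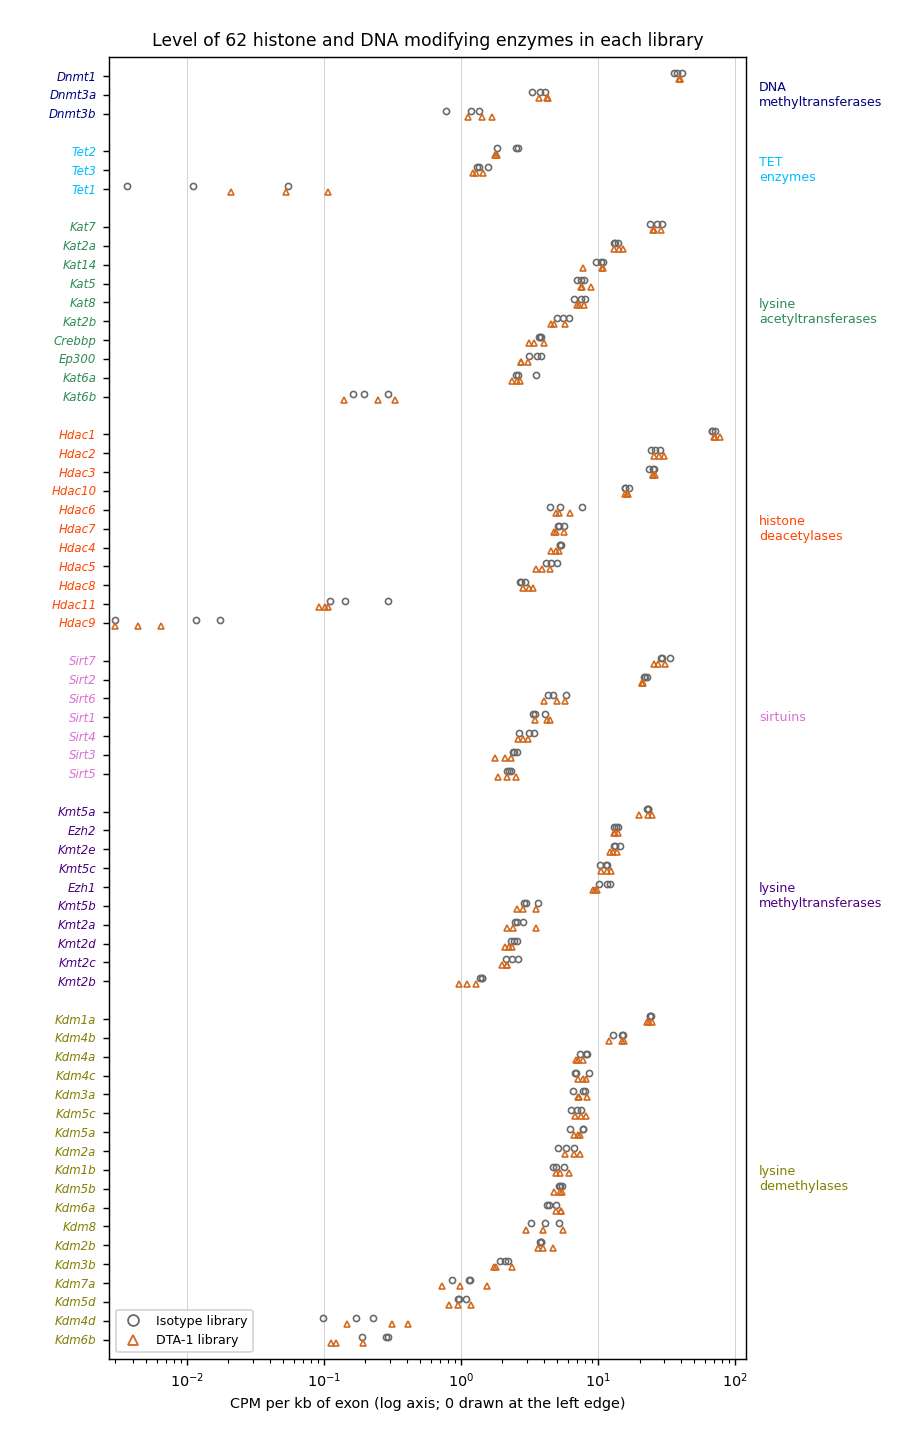
Level of the 62 members in each library, as CPM per kb of exon on a log axis, grouped by family and ordered by mean. Circles are isotype control libraries and triangles DTA-1 libraries, and the marks of both groups lie close together for most genes, from Hdac1 at 67.2 to 77.5 CPM per kb down to Hdac9 at 0 to 0.0173 CPM per kb.

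Among the enzymes that act on DNA, Dnmt1, which maintains methylation after replication, made up 88.2% of the summed level of the DNA methyltransferases. Dnmt1 was at 265, 300 and 275 CPM in isotype control replicates 1, 2 and 3 and at 292, 285 and 290 CPM in DTA-1 replicates 1, 2 and 3. The groups overlapped, and the log2 fold change (DTA-1 over isotype control) was 0.05, with a 95% interval of -0.09 to 0.19. Per kb of exon, Dnmt1 exceeded the de novo methyltransferase Dnmt3a 8.72- to 11.3-fold with isotype control and 9.15- to 10.7-fold with DTA-1. The size of this excess depends on the length used. With the longest coding transcript the means over all libraries were 48.5 (Dnmt1) and 6.69 CPM per kb (Dnmt3a). Dnmt3a was at 68.4, 62.4 and 54.8 CPM with isotype control and at 61.5, 70.2 and 71.6 CPM with DTA-1, with overlap and a log2 fold change of 0.13 (SE 0.101). Dnmt3b, the other de novo enzyme, was at 1.25 CPM per kb. Its log2 fold change was 0.35 (SE 0.249), and the groups overlapped.

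The TET enzymes had the lowest summed level of the 7 families, 3.74 ± 0.252 CPM per kb (SD, n = 3) with isotype control and 3.16 ± 0.147 with DTA-1 (SD, n = 3). All 3 DTA-1 libraries (3.01 to 3.30) were below all 3 isotype control libraries (3.45 to 3.90). Tet2 made up 59.3% of this sum and Tet3 most of the rest, whereas Tet1 was close to the limit of detection, with 2 to 51 counts per library. Tet2 was at 30.8, 42.2 and 43.6 CPM with isotype control and at 30.6, 29.7 and 30.4 CPM with DTA-1. Isotype control replicate 1 was thus almost at the DTA-1 level, while the other isotype control libraries were clearly higher. In isotype control replicate 1, Tet3 was at its highest level of all libraries (1.57 CPM per kb). The summed levels of the family were not tested. The Tet2 log2 fold change was -0.36 (SE 0.131), with an adjusted p of 0.632 by edgeR. Without DTA-1 replicate 1 it was -0.37 (edgeR adjusted p = 0.306), and with each of the 6 libraries left out in turn it ranged from -0.50 to -0.27. Over all alternatives run, the adjusted p of Tet2 was 0.306 to 0.999.

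Among the lysine acetyltransferases, Kat7, the catalytic subunit of the HBO1 complex, had the highest level and made up 33.0% of the family's sum. Kat7 was at 132, 160 and 148 CPM with isotype control and at 140, 141 and 160 CPM with DTA-1. Its groups overlapped, and the log2 fold change was -0.00 (95% interval -0.19 to 0.19). The lowest member was Kat6b, at 0.227 CPM per kb.

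The paralogous coactivators Ep300 and Crebbp, which bridge transcription factors and acetylate histone H3, were present at like levels (3.17 and 3.64 CPM per kb). Ep300 was at 54.4, 44.3 and 51.1 CPM with isotype control and at 44.0, 38.8 and 39.1 CPM with DTA-1. All DTA-1 libraries were below all isotype control libraries, although DTA-1 replicate 1 was within 1 CPM of isotype control replicate 2. The log2 fold change of Ep300 was -0.30 (SE 0.104; edgeR adjusted p = 0.632), and -0.36 without DTA-1 replicate 1 (edgeR adjusted p = 0.171). Over all alternatives the adjusted p of Ep300 was 0.171 to 0.999. For Crebbp the log2 fold change was -0.10 (SE 0.100), with overlapping groups. The ratio of Ep300 to Crebbp per kb was 0.814 to 1.03 with isotype control and 0.772 to 0.863 with DTA-1, so that the ratios of the groups overlapped. With the longest coding transcript as length the order of their means turned, to 4.73 (Ep300) and 4.55 CPM per kb (Crebbp).

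Among the zinc-dependent deacetylases, the class I enzymes Hdac1, Hdac2, Hdac3 and Hdac8 held 77.6% of the summed level. Of these, Hdac1, Hdac2 and Hdac3 encode catalytic subunits of nuclear corepressor complexes. Hdac1 was the highest of all 62 members, with a level 1.84 times that of the next gene, Dnmt1. With the longest coding transcript as length Hdac1 was also the highest (120 CPM per kb), but the next gene was Sirt7 (86.6), and Dnmt1 (48.5) was below Sirt2 and Hdac3 too. Hdac1 was at 246, 233 and 231 CPM with isotype control and at 243, 267 and 245 CPM with DTA-1. These groups overlapped, with a log2 fold change of 0.09 (95% interval -0.05 to 0.23). Per kb, Hdac1 exceeded its paralog Hdac2 2.39- to 2.94-fold with isotype control and 2.55- to 2.75-fold with DTA-1. That excess also depends on length, since with the longest coding transcript the means were 120 (Hdac1) and 37.2 CPM per kb (Hdac2). Hdac2 was at 109, 127 and 117 CPM with isotype control and at 114, 134 and 125 CPM with DTA-1, with overlap and a log2 fold change of 0.08 (SE 0.083).

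The signal-responsive class IIa deacetylases (Hdac4, Hdac5, Hdac7 and Hdac9) summed to 15.1 ± 0.290 CPM per kb with isotype control (SD, n = 3) and 13.9 ± 0.948 with DTA-1 (SD, n = 3). Hdac4 was at 82.8 to 84.3 CPM with isotype control and at 72.0 to 81.4 CPM with DTA-1, without overlap, and its log2 fold change was -0.12 (SE 0.075). Hdac9 had 0 to 9 counts per library and was the only member that did not pass the filter on low counts. Hdac11, the class IV enzyme, also had few counts (11.3 to 40 per library). Hdac11 was lower in all DTA-1 libraries (0.352 to 0.408 CPM) than in the isotype control libraries (0.425 to 1.13 CPM), but its log2 fold change of -0.86 had an interval of -2.10 to 0.37.

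Among the sirtuins, the nuclear and nucleolar enzyme Sirt7 and the mainly cytoplasmic Sirt2 had the highest levels. Sirt7 made up 43.5% of the family's sum. Sirt7 was at 150, 146 and 172 CPM with isotype control and at 158, 131 and 140 CPM with DTA-1, with overlap and a log2 fold change of -0.12 (SE 0.087). Sirt2 was at 109 to 115 CPM with isotype control and at 104 to 106 CPM with DTA-1. Those ranges did not overlap, yet the log2 fold change was only -0.08 (95% interval -0.22 to 0.06). The mitochondrial deacetylase Sirt3 did not overlap either (14.3 to 15.3 CPM against 10.6 to 13.7 CPM, log2 fold change -0.26, SE 0.147). Sirt3 shares exon bases with Psmd13 and Ric8a on the opposite strand, which had 29021 and 30598 counts over the 6 libraries against 2708 for Sirt3. Sirt7 likewise shares 124 bases with Mafg on the same strand, and use of strand in counting is not given in the sources used here, so values of both sirtuins are uncertain. Sirt2 shares 42 bases with Nfkbib on the opposite strand.

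Among the lysine methyltransferases, Kmt5a, which places the single methyl group on histone H4 lysine 20, had the highest level (22.6 CPM per kb). Kmt5a was at 121, 121 and 120 CPM with isotype control and at 105, 122 and 130 CPM with DTA-1. The isotype control libraries were close together, the DTA-1 libraries lay on both sides of them, and the log2 fold change was -0.02 (95% interval -0.21 to 0.16). The 5 KMT2 genes gave 26.3% of the family's summed level. Kmt2a to Kmt2d encode methyltransferases of histone H3 lysine 4 at promoters and enhancers, whereas the Kmt2e product is not thought to have that activity of its own. Kmt2e was the highest of them (13.2 CPM per kb) and Kmt2b the lowest (1.26 CPM per kb). Kmt2b was at 13.6, 13.2 and 13.6 CPM with isotype control and at 9.28, 10.6 and 12.3 CPM with DTA-1. Its libraries did not overlap, and its log2 fold change was -0.33 (SE 0.155, edgeR adjusted p = 0.702). Without DTA-1 replicate 1 the Kmt2b value was -0.23 (edgeR adjusted p = 0.558).

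Ezh1 and Ezh2 are the alternative catalytic subunits of Polycomb repressive complex 2, which methylates histone H3 lysine 27. Ezh2 is usually linked to dividing cells and Ezh1 to resting cells. Ezh1 was at 75.2, 85.6 and 90.2 CPM with isotype control and at 70.9, 72.6 and 67.9 CPM with DTA-1. All DTA-1 libraries were lower, the nearest by less than 3 CPM. The log2 fold change of Ezh1 was -0.25 (SE 0.085; edgeR adjusted p = 0.632), and -0.25 without DTA-1 replicate 1 (edgeR adjusted p = 0.266; 0.266 to 0.999 over all alternatives). Ezh2 was at 93.2, 87.6 and 89.4 CPM with isotype control and at 87.1, 87.7 and 93.1 CPM with DTA-1. These groups overlapped fully, with a log2 fold change of -0.01 (95% interval -0.17 to 0.14). The ratio of Ezh2 to Ezh1 per kb was 1.10 to 1.38 with isotype control and 1.35 to 1.53 with DTA-1, and the groups overlapped because of isotype control replicate 1. The size of this ratio depends on length. With the longest coding transcript the means were 32.2 (Ezh2) and 18.3 CPM per kb (Ezh1).

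Among the lysine demethylases, Kdm1a (LSD1), a flavin-dependent enzyme, had the highest level. Kdm1a was at 124, 126 and 123 CPM with isotype control and at 117, 127 and 122 CPM with DTA-1, with overlap and a log2 fold change of -0.03 (95% interval -0.17 to 0.11). Kdm6a (UTX) and Kdm6b (JMJD3), which remove methyl groups from histone H3 lysine 27, were present at very different levels (4.83 and 0.198 CPM per kb). Kdm6a was at 36.4, 41.1 and 35.2 CPM with isotype control and at 41.0, 44.4 and 44.9 CPM with DTA-1, overlapping only in isotype control replicate 2 and DTA-1 replicate 1. For Kdm6a the log2 fold change was 0.21 (SE 0.097; edgeR adjusted p = 0.692). Kdm6b, with 24 to 72.1 counts per library, was at 2.03, 1.31 and 1.96 CPM with isotype control and at 0.776, 1.35 and 0.847 CPM with DTA-1. The log2 fold change of Kdm6b was -0.83 (SE 0.396; edgeR adjusted p = 0.702), with overlap through isotype control replicate 2. The ratio of Kdm6a to Kdm6b per kb was 14.8 to 26.0 with isotype control and 27.4 to 43.9 with DTA-1. These ratios did not overlap, and no test was run on them.

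The X-linked gene Kdm5c and its Y-linked paralog Kdm5d were both detected, and the ratio of Kdm5c to Kdm5d per kb was 6.51 to 7.38 with isotype control and 6.96 to 8.29 with DTA-1. Reads of such paralogs can be split between them, so the ratio is uncertain. It also depends on the length used. With the longest coding transcript the means were 7.92 (Kdm5c) and 1.88 CPM per kb (Kdm5d), against 7.19 and 0.991 with the union of exons. Kdm6a exceeded Uty, the Y-linked paralog that is counted among the other chromatin genes, 1.46- to 1.61-fold and 1.42- to 1.63-fold. Both ratios overlapped between the groups.

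**Figure D2:**
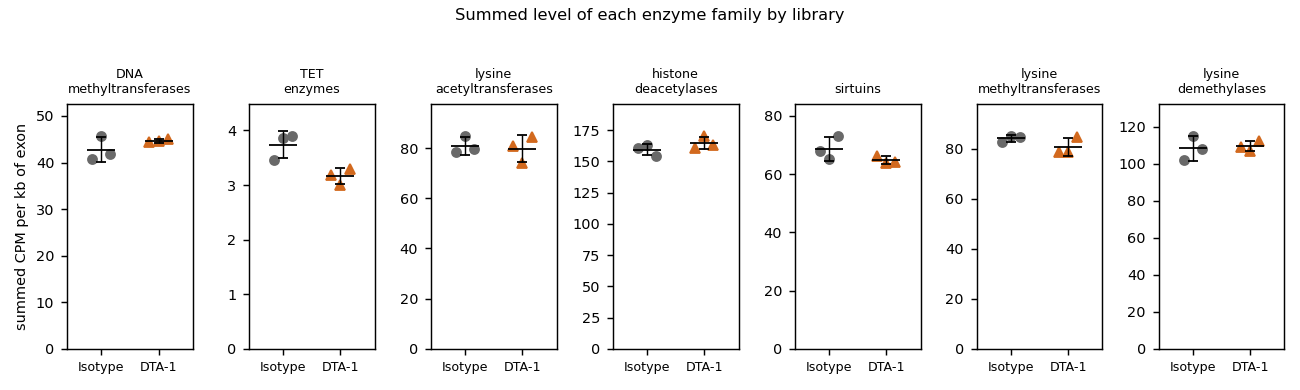
Summed level of each enzyme family by library (CPM per kb of exon, axes from 0), with bars for mean ± SD of 3 libraries. TET enzymes are the one family whose groups do not overlap (3.45 to 3.90 against 3.01 to 3.30 CPM per kb). The sums were not tested.

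Summed by family, levels with DTA-1 stayed near those with isotype control. The deacetylases had the highest sum (159 ± 4.39 CPM per kb with isotype control and 165 ± 5.13 with DTA-1, SD, n = 3), followed by the demethylases (108 ± 6.64 and 109 ± 2.73). This order depends on the length used, since with the longest coding transcript the sirtuins came second (168 CPM per kb over all libraries, against 159 for demethylases). Methyltransferases were at 84.1 ± 1.28 and 80.7 ± 3.47, and acetyltransferases at 80.9 ± 3.49 and 79.7 ± 5.30. Sirtuins were at 68.7 ± 4.09 and 64.8 ± 1.42, and DNA methyltransferases at 42.7 ± 2.63 and 44.7 ± 0.389. In these 6 families the ranges of the groups overlapped, and the ratio of the means ran from 0.943 (sirtuins) to 1.04 (DNA methyltransferases), against 0.846 for TET enzymes.

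Whether GITR stimulation changed any of these genes was then tested over all genes. A gene was called when its edgeR adjusted p was under 0.05 and its change at least 1.5-fold. Of the 62 members, 61 were tested and 0 were called. With all 6 libraries 0 of 14361 genes were called (0%), so that this count says little about the members. DESeq2's Wald test called 25 of the 16435 genes to which it gave an adjusted p (0.152%) and 0 members, and 3 members had an unadjusted p under 0.05 by either tool. Without DTA-1 replicate 1, edgeR called 111 of 14911 genes (0.744%) and again 0 of the 61 members. At an adjusted p under 0.05 with no limit on fold change, 1.35% of all genes were higher and 0.342% lower in that comparison, and 0 members were among them. The smallest adjusted p of a member was 0.171 there (Ep300).

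The data were nonetheless precise for most members. The 95% interval of the fold change lay within 1.5-fold in either direction for 51 of 61 members (83.6%), against 58.9% of all genes tested. The median SE of the members' log2 fold changes was 0.11, and 49 of the 61 values were smaller than 0.2 in size. Without DTA-1 replicate 1 the interval lay within 1.5-fold for 49 of 61 members (80.3%) and 52.7% of all genes. The 10 members whose interval passed 1.5-fold with all libraries were Dnmt3b, Tet1, Tet2, Hdac11, Kat6b, Kdm4d, Kdm6b, Kdm7a, Kmt2b and Sirt3. The largest changes in size belonged to genes with few counts, namely Tet1 (1.36, SE 0.867), Hdac11 (-0.86, SE 0.561), Kdm6b (-0.83, SE 0.396) and Kdm4d (0.80, SE 0.567), the last with 10 to 37 counts per library. In the 53 members with at least 10 CPM in isotype control, the coefficient of variation among the isotype control libraries had a median of 7.42%, from 0.559% in Kmt5a to 28.3% in Hdac6.

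**Figure D3:**
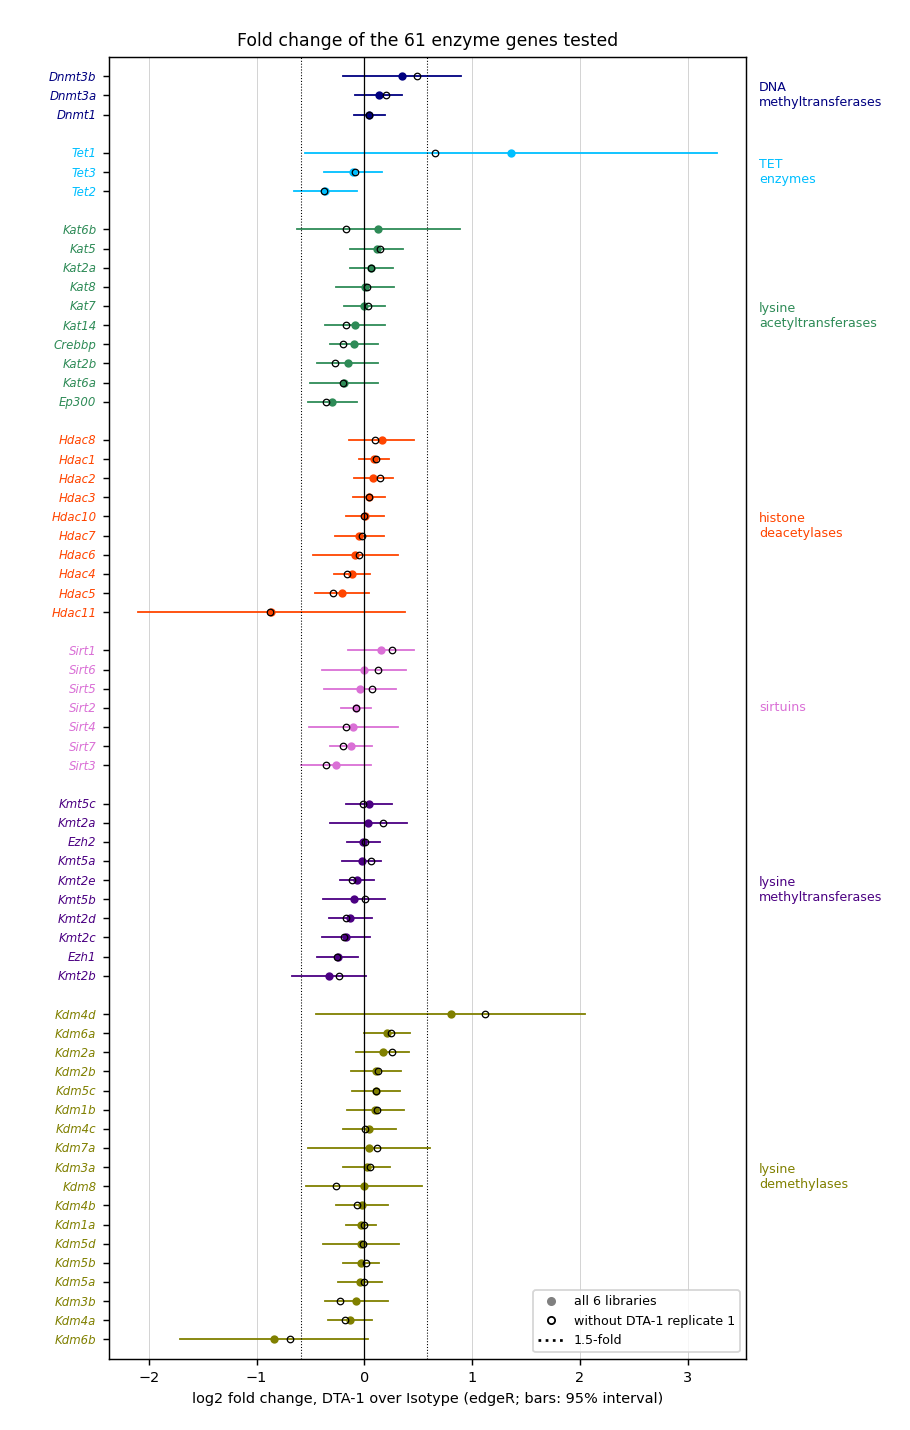
Log2 fold change of DTA-1 over isotype control for the 61 members tested, with 95% intervals (filled points, all 6 libraries) and the value without DTA-1 replicate 1 (open circles). Dotted lines mark 1.5-fold, 51 of the 61 intervals lie between them, and the intervals of Tet2, Ep300 and Ezh1 lie below 0.

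At an unadjusted p under 0.05, Tet2, Ep300 and Ezh1 were lower with DTA-1 (3 of 61, 4.92%) and 0 members were higher, while 3.11% of all genes were lower and 4.11% higher. Without DTA-1 replicate 1, 6 of 61 members were lower (Tet2, Hdac5, Ep300, Ezh1, Sirt3 and Sirt7) and 2 higher (Kdm2a and Kdm6a), beside 6.53% and 7.50% of all genes. Each of these shares rests on at most 6 genes and was not tested against that of all genes. The members' median log2 fold change was -0.02, with 36 of 61 values below 0 (59.0%), against a median of -0.01 and 51.9% below 0 over all genes. Without DTA-1 replicate 1 the median was -0.00 with 31 of 61 below 0 (50.8%), against 52.9% of all genes.

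Libraries of the groups did not overlap for 8 of 61 members (13.1%), namely Tet2, Ep300, Ezh1, Kmt2b, Sirt2, Sirt3, Hdac4 and Hdac11. All 8 were lower with DTA-1 and 0 members were higher, whereas over all genes 6.03% were lower and 5.26% higher without overlap. The separation was narrow in several of them. The nearest libraries of the groups were 0.151 CPM apart for Tet2, 0.322 CPM for Ep300 and 0.0174 CPM for Hdac11, each under 0.1 times the SD of isotype control. The gap was 4.36 times that SD for Kmt2b (0.933 CPM) and 1.92 times for Hdac4 (1.45 CPM). Both SDs were small (0.214 and 0.755 CPM, n = 3), which makes these multiples large. With DTA-1 the SD was 1.51 CPM for Kmt2b and 4.72 CPM for Hdac4, above the gap in both.

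**Figure D4:**
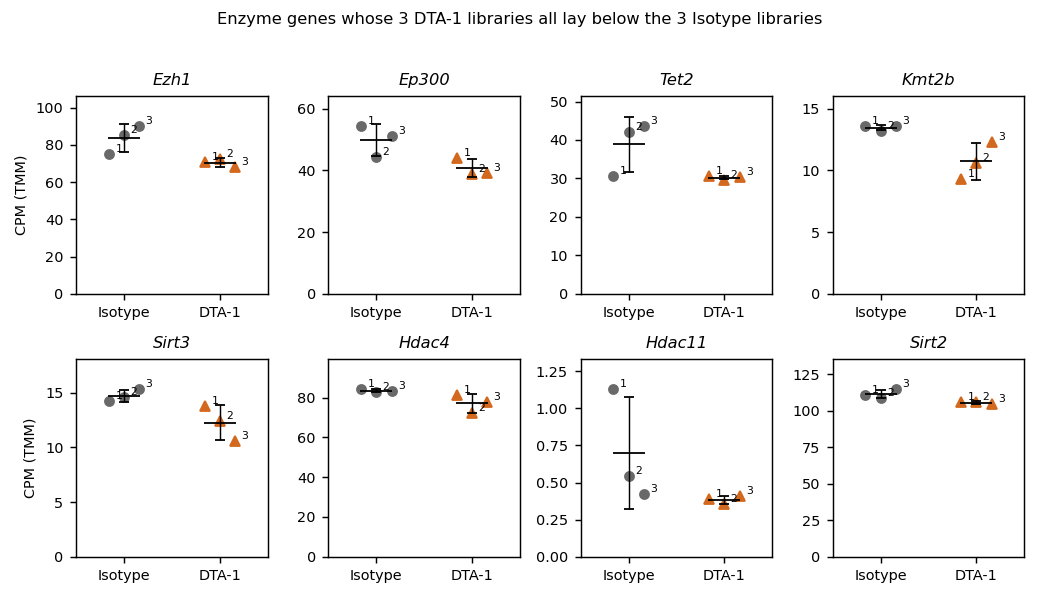
Normalized counts (CPM, axes from 0) of the 8 members whose DTA-1 libraries all lay below the isotype control libraries, ordered by p; numbers are replicate numbers and bars are mean ± SD of 3 libraries. The nearest libraries almost touch in Tet2 and Ep300, and Kmt2b has the widest gap relative to its spread with isotype control (4.36 SD). That SD was small (0.214 CPM, against 1.51 CPM with DTA-1).

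Partners of these enzymes and related enzymes under other names were examined as a list of 100 genes, of which 99 were tested. The list holds the core and accessory subunits of Polycomb, COMPASS, corepressor and acetyltransferase complexes, readers of acetylated histones and DNA methylation factors. With all libraries and without DTA-1 replicate 1, 0 of the 99 were called by edgeR, and DESeq2's Wald test with all libraries called 0. At an unadjusted p under 0.05, 5 were higher with DTA-1 and 1 was lower (5.05% and 1.01%, against 4.11% and 3.11% of all genes), and the median log2 fold change was -0.00. Among the higher genes were the methyltransferases Nsd3 (64.0 to 78.9 CPM as group means, log2 fold change 0.30, SE 0.123) and Smyd2 (41.0 to 47.8 CPM, 0.22, SE 0.100), the arginine methyltransferase Carm1 (50.1 to 58.5 CPM, 0.22, SE 0.098), and the histone chaperone Rbbp7 (647 to 728 CPM, 0.17, SE 0.068). The lower gene was Mbd2, a reader of methylated DNA (234 to 209 CPM, -0.16, SE 0.070). By edgeR with all libraries the smallest adjusted p of these named genes was 0.656 (Rbbp7), and without DTA-1 replicate 1 it was 0.0874 (Rbbp7).

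Genes of S phase and mitosis were followed because Dnmt1 and Ezh2 are usually high in dividing cells. Of 14 such genes, 0 were called by edgeR or by DESeq2's Wald test, and Top2a, the mitotic topoisomerase, had an unadjusted p under 0.05 (334 to 377 CPM, log2 fold change 0.17, SE 0.077). Their median log2 fold change was 0.03. Without DTA-1 replicate 1, Top2a, Mcm3, Mcm4 and Rrm2 were higher at an unadjusted p under 0.05, and the median was 0.05. The part of cell division in the members' levels was not tested.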

How the data were processed

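RNA from 6 libraries (3 isotype control, 3 DTA-1) was sequenced. The authors aligned reads and quantified genes in Partek (the submitters' processing notes name STAR 2.5.3a, bcl2fastq 2.17.1.14 and build mm10), and deposited expected counts, which are estimates of the reads of each gene and were not normalized. Annotation release and use of strand are not given in the sources used here. Culture time is 48 h in the labels and methods and shorter in the results text.

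Expected counts were rounded and fitted over all genes with edgeR 4.0.16 in R 4.3.3 (filterByExpr by group, TMM, robust dispersions, quasi-likelihood F test, Benjamini-Hochberg adjustment over 14361 genes, no covariate). SEs were derived from the log2 fold change and F statistic, and intervals are 95% per gene. A count of 0 allows up to 3 counts, 0.0854 to 0.0981 CPM per library, and covers counting error only. Exon length was the union of exons in GENCODE mouse release 21, in which 61 of 62 members had the start the table gives and the table's ends lay 1 base past the annotated ones. Promoter windows were from RefSeq (GRCm38.p6), taking for members the start nearest the gene's start in the table and for all protein-coding genes the first one listed. Alternatives were other scalings, filters, DESeq2 1.42.0, limma-trend 3.58.1 (prior count 2), the replicate block, each library left out and another exon length. Python 3.11.15, pandas 2.3.3, numpy 2.4.6 and matplotlib 3.10.9 were used, and the procedure was tested on simulated data.

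Genes given in every library were those with an unadjusted p under 0.05, those with the highest level per kb in each family and 4 pairs of paralogs, and Kmt2b was added after its values were seen. Other genes named with values mark the ends of ranges, lie near a threshold or did not overlap, and were chosen after their values were seen. Members, partners, S phase genes and marker lists were chosen with earlier results of these data known. The table's columns of single libraries were all used. Values of 1 gene of the partner list are not reported here.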

Additional observations from a re-analysis of the deposited data

How the results depend on the processing

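No member and no gene of the partner list was called under any alternative run, which covered DESeq2's size factors, total counts, DESeq2's Wald test, limma-trend, either filter, the replicate block, no limit on fold change, and each library left out. The number of members at an unadjusted p under 0.05 (3, all lower) was 5, all lower, with total counts, and ran from 1 (without isotype control replicate 3) to 8 (without DTA-1 replicate 1), with 5 without isotype control replicate 2. Those lower with DTA-1 ran from 1 to 6 without the same libraries. With the replicate block 4 members had an unadjusted p under 0.05, 3 of them lower. Over all genes the number was 1037 of 14361 in the main fit, 1071 with total counts and 1041 with the replicate block. It was 765 of 14805 without isotype control replicate 3 and 1092 of 14892 without isotype control replicate 2. Without DTA-1 replicate 1 it was 2092 of 14911, so in that setting the number rose for all genes as well. With total counts and without isotype control replicate 2 it changed little over all genes, while that of members went from 3 to 5. The replicate numbers did not pair the libraries (r of deviations from group means -0.007, -0.003 and 0.015). Members without overlap (8) numbered 9 to 23 with a library left out, where fewer libraries make separation easier by construction. There were 16 without isotype control replicate 1, 15 without isotype control replicate 2, and 23, 14 and 13 without DTA-1 replicates 1, 2 and 3. The share of all genes without overlap is given only for all 6 libraries, so these counts cannot be read as a result about the members.

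Family levels were higher with the longest coding transcript as length, to 56.6 for DNA methyltransferases, 5.90 for TET enzymes, 271 for deacetylases, 113 for acetyltransferases, 159 for demethylases, 146 for methyltransferases and 168 CPM per kb for sirtuins, since that length is shorter than the union of exons; sirtuins then exceeded demethylases, methyltransferases and acetyltransferases. The log2 fold change of Kat7, near 0, changed sign with DESeq2's size factors (0.00156), DESeq2's Wald test (0.00193), limma-trend (0.000155) and the replicate block (0.000181), and ran from -0.068 to 0.067 with a library left out. That of Kmt5a ran from -0.094 to 0.059, above 0 without DTA-1 replicate 1. For the other 7 genes with p under 0.05 or the highest level of a family, the direction held under every alternative. Of the other genes given by library, Ezh2 ran from -0.042 to 0.018 with a library left out. Members under about 50 counts per library (Tet1, Hdac9, Hdac11 and Kdm4d) are limited by depth.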
